A study of Mus musculus with 4 samples.

Results

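The 47 genes described here encode the proteins that license, start and carry out DNA replication, together with the enzymes that make deoxynucleotides and the factors of S phase entry and chromatin assembly. They were picked by gene symbol out of 24421 genes in the count tables, and all 47 were among the 15012 genes with enough counts to be tested. The list was chosen with earlier results of these data known, so it may not be independent of them. The cells were neural stem cells of the mouse cerebral cortex (strain C57BL/6J), taken at embryonic day 17 and grown for 1 day in proliferation medium with basic FGF and EGF, and their poly(A) RNA was sequenced. Both groups carried floxed Prrc2b alleles (Prrc2bf/f). The control group of 2 libraries carried no Cre by its label, and the other group of 2 libraries (Prrc2bf/f; Nestin-Cre) also carried a Cre recombinase driven by the Nestin promoter, which is active in neural progenitors. The comparison asks whether transcripts of the replication machinery differ in progenitors labelled as conditional knockouts of Prrc2b.

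Replication is prepared in G1, when the origin recognition complex, Cdc6 and Cdt1 load the ring-shaped MCM helicase onto DNA. At the start of S phase Cdc45 and the GINS complex join the helicase, primase and the polymerases copy both strands behind it, and the sliding clamp PCNA holds the polymerases on DNA. Many of these genes are transcribed by E2F factors at the G1/S boundary, so in cortical progenitors their summed transcript level is widely read as a sign of how many cells are cycling.

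Gene totals ran from 25936794 to 28263272 counts per library, and single members had between 172 counts (Orc1) and 6496 counts (Rrm1) in a library. Levels below are CPM (gene counts divided by the scaled library total, times 1e+06), given for control replicates 1 and 2 and then for replicates 1 and 2 of the libraries labelled knockout. Folds are the libraries labelled knockout over control. Libraries of 1 group stood close together (chi-square per gene 1.96 and 2.2, against 20.4 to 21.2 between groups), and the labels do not say whether 2 replicates are different embryos or cultures. The p-values therefore rest on a spread between libraries that may be only technical. Prrc2b itself was at 588 and 594 CPM in control and, in those labelled knockout, at 574 and 572 CPM (edgeR adjusted p = 0.134). A count over the whole gene does not check a deletion of part of it, so the genotype is taken from the labels. The Y-linked gene Ddx3y had 646 and 667 counts in control and 0 in both libraries labelled knockout (up to 3 counts are allowed by a count of 0), while Xist was at 1670 and 1610 CPM and at 2210 and 2120 CPM. The sex of the embryos and the genotype therefore cannot be told apart in these results.

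The replication genes differed little between the groups. Of the 47 members, 2 rose (Mcm7 and Pold1), 6 fell (Mcm2, Mcm3, Pola1, Rrm2, Tyms and Ccne1) and 39 did not pass the edgeR quasi-likelihood test at an adjusted p of 0.05. That is 17.0% of the members, against 33.1% of all 15012 genes (15.1% higher and 18.1% lower), and 35.6% of the 10433 tested genes that lay within the members' range of abundance (7.41 to 229 CPM). At an unadjusted p of 0.05 there were 10 members, against 41.8% of all genes. DESeq2 called 0 higher and 3 lower (Mcm3, Rrm2 and Tyms), against 18.0% of all genes, and without knockout replicate 1 the edgeR test also left 3 lower. The largest difference was that of Tyms, 0.805-fold, and no other member differed by as much as 1.2-fold, a size that 22.9% of all genes reached. The median log2 fold change of the members was 0.04, beside 0.005 over all genes, and 32 of the 47 estimates were above 0, against 51.0% of all genes.

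The intervals of the fit bound the differences between these libraries only. The spread they rest on may be only technical, and sex cannot be told apart from genotype, so they do not bound an effect of genotype. For 38 of the 47 members the 95% interval of the fold lay wholly within 1.2-fold of equality. It did so for 50.4% of all genes and for 66.5% of the tested genes in the members' abundance range. For all 47 members the interval lay within 1.5-fold, as it did for 95.1% of the genes in that range. In simulated counts with the means of these libraries, all genes shared the same dispersion and 50 genes were changed at each size. The same test recovered 64% of those changed by 1.2-fold and 100% of those changed by 1.5-fold. In the real data many more genes were called and the dispersion of single genes may differ, so these shares may not carry over. Smaller differences did pass in some members, such as Rrm2 at 0.912-fold. For 23 members (48.9%) every library of 1 group lay above every library of the other, against 64.8% of all genes. Summed over the 47 genes, the level was 2847 and 2798 CPM in control and 2826 and 2824 CPM in the libraries labelled knockout. Both libraries labelled knockout thus lay between the control libraries.

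**Figure D1:**
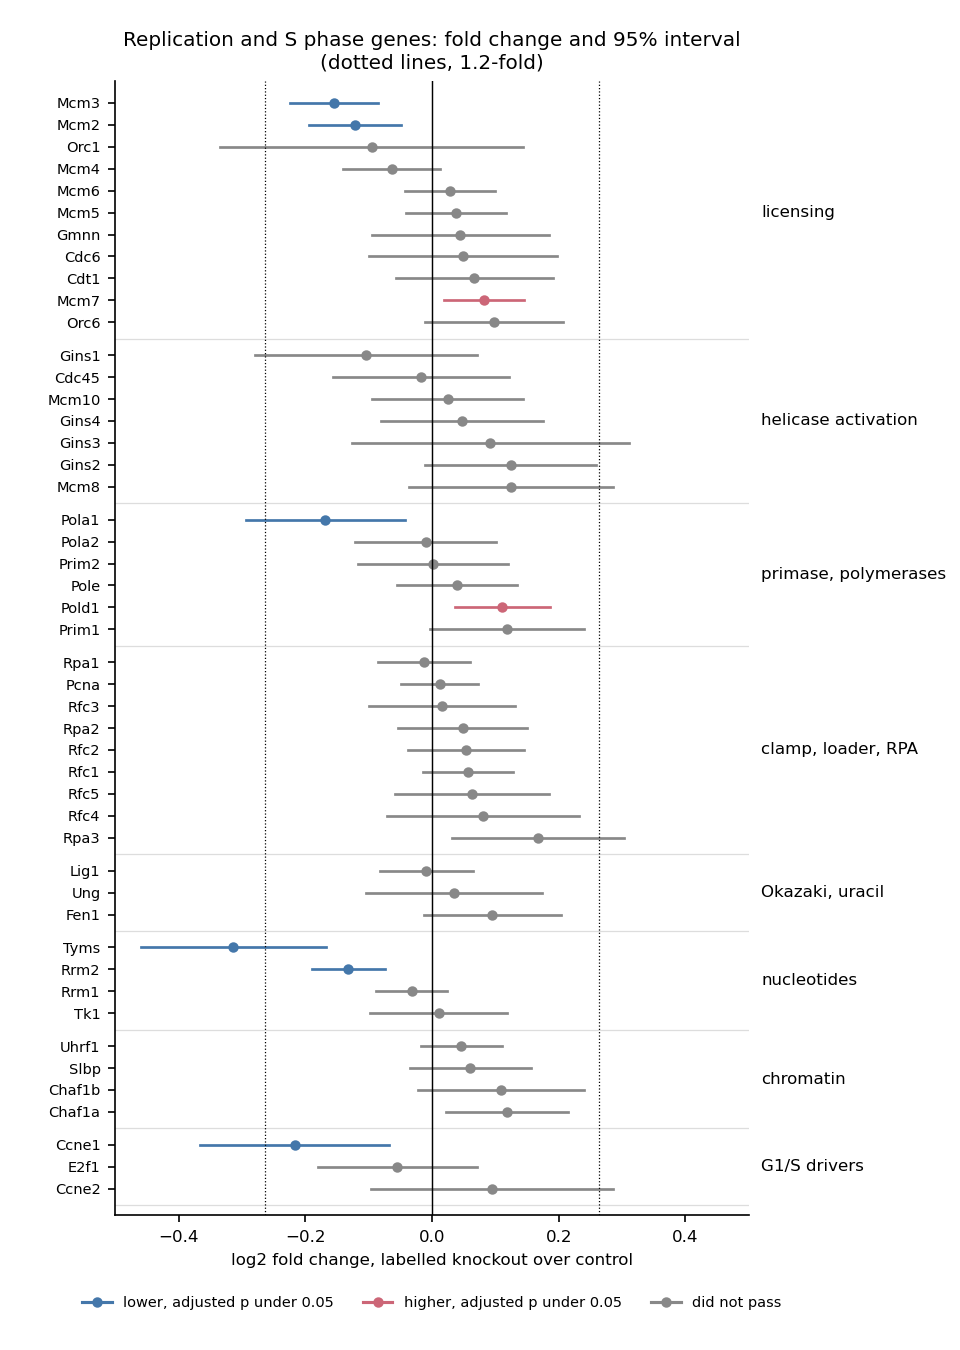
Log2 fold change (points) and 95% interval (bars) of each of the 47 members, libraries labelled knockout over control, sorted within role groups; the solid line is no difference and the dotted lines are 1.2-fold. The 6 blue genes fell and the 2 red genes rose at an edgeR adjusted p of 0.05; Tyms is the 1 estimate beyond a dotted line.

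**Figure D2:**
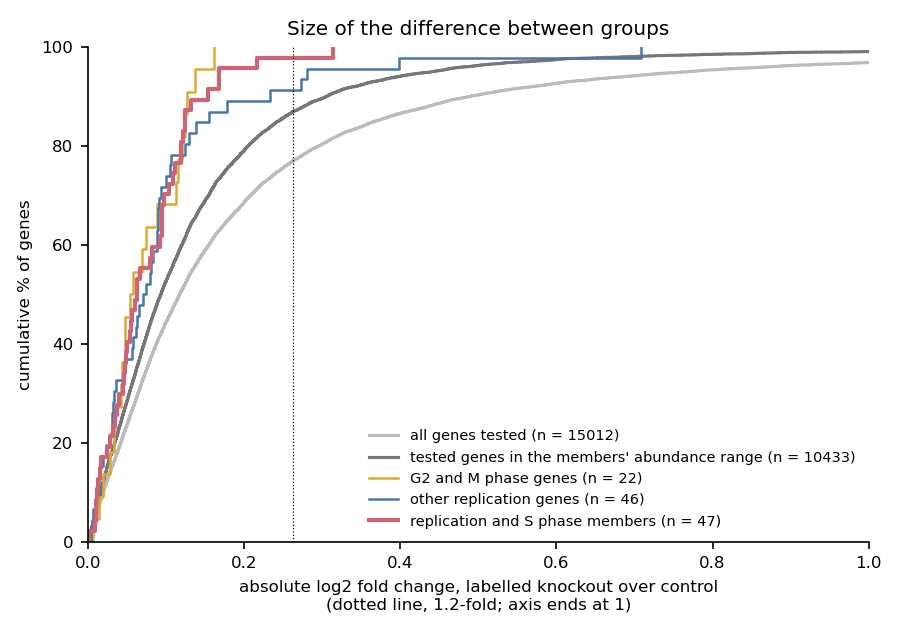
Cumulative share of genes (y axis, percent) by the absolute log2 fold change between groups (x axis, shown up to 1), for the 47 members, 46 other replication genes, 22 G2 and M phase genes, the 10433 tested genes in the members' abundance range and all 15012 genes. The median was 0.063 for the members, 0.094 for genes in their abundance range and 0.117 for all genes.

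Some members, among them 7 licensing genes, held a promoter motif that their choice did not use. In RefSeq promoters (GRCm38.p6; 250 bases before to 50 after the start), available for 38 of the 47, an E2F-type motif spelled TTTCCCGC, TTTGGCGC, TTTCGCGC or TTTGCCGC, on either strand, was found for 14 genes (36.8%), against 2.60% of 27025 genes with a promoter and 4.47% of the tested genes. The share was 27.0% in the further replication genes described below (10 of 37) and 55.6% in genes of the E2F, DP and pocket protein families (5 of 9), while 1 of 18 genes of G2 and M phase held it. It was uneven among the role groups. Of 9 licensing genes with a promoter 7 held it, of 8 clamp, loader and RPA genes 1 did, and none of 4 nucleotide synthesis genes or 2 G1/S genes did. A CCAAT box (CCAAT on either strand) was present in 63.2% of the members' promoters, in 41.1% of all and in 88.9% of the G2 and M phase promoters (16 of 18). The motif was in the promoters of both members that rose, of 2 of the 6 that fell (Mcm3 and Pola1) and of 10 of 30 that did not pass, so members holding it were found in all 3 classes. The windows below show it in capitals for the 4 genes that passed and for 4 licensing genes that did not, each written 5′ to 3′ along the gene's strand. GCGGGAAA, GCGCCAAA and GCGCGAAA are forms of the motif read on the opposite strand.
Mcm3: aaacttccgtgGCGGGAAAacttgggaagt
Mcm7: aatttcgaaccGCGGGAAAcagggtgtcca
Pola1: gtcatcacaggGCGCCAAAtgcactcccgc
Pold1: cgtatcttgtgGCGGGAAAagc
Orc1: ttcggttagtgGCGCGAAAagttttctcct
Cdc6: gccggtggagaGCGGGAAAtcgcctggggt
Mcm5: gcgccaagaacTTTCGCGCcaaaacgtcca
Mcm6: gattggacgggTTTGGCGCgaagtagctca
The Mcm3 window is at chr1:20820275-20820304 (minus strand), and its motif begins 20 bases after the start. A further Mcm3 match begins 39 bases after the start. The Mcm7 window is at chr5:138172030-138172059 (minus strand), 165 bases before the start, and a further match begins 17 bases after the start, where it overlaps a CCAAT box. The Pola1 window is at chrX:93632275-93632304 (minus strand), 138 bases before the start. The Pold1 window, at chr7:44548766-44548787 (minus strand), ends with the RefSeq promoter. Those of Orc1 (chr4:108579416-108579445), Cdc6 (chr11:98908002-98908031) and Mcm5 (chr8:75109345-75109374) are on the plus strand, and that of Mcm6 (chr1:128359734-128359763) is on the minus strand. The Mcm5 match overlaps a further one on the other strand. Mcm6 has further matches that begin 106 and 110 bases before the start. A match is a spelling in the window and does not show that a factor binds there.

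Of the 11 licensing genes 2 fell, 1 rose and 8 did not pass, and the 3 that passed were subunits of the same helicase. The share called was 27.3%, against 33.1% of all genes. The MCM helicase is a ring of the subunits Mcm2 to Mcm7. Mcm3 was at 124 and 120 CPM in control and at 111 and 109 CPM in the libraries labelled knockout, 0.899-fold (95% interval 0.857 to 0.943, edgeR adjusted p = 0.000467). Mcm2 was at 104 and 103 against 94.4 and 95.8 CPM, 0.919-fold (edgeR adjusted p = 0.00726). For both genes every control library lay above every library labelled knockout. Mcm7 went the other way, from 153 and 149 CPM to 159 and 161 CPM, 1.06-fold (1.01 to 1.11, edgeR adjusted p = 0.0385). The Mcm7 call was lost without control replicate 2, without either library labelled knockout, with DESeq2, with the legacy fit, with no low-count filter and at a threshold of 0.01, with adjusted p from 0.00559 to 0.224 over 14 alternatives. That of Mcm2 was lost with DESeq2 and without knockout replicate 1 (0.00347 to 0.0975), and that of Mcm3 held in all 14 (9.52e-05 to 0.0146). The remaining ring subunits did not pass, with Mcm4 at 0.957-fold, Mcm5 at 1.03-fold and Mcm6 at 1.02-fold. Their intervals together ran from 0.908 to 1.08.

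The genes that load the ring did not pass. Orc6, a subunit of the origin recognition complex, was at 43.5 and 40.1 CPM in control and at 46.9 and 42.4 CPM in the libraries labelled knockout (edgeR adjusted p = 0.167), and its groups overlapped. Orc1, which binds origins and is the scarcest member, was at 0.936-fold with an interval of 0.793 to 1.10. The loading factors Cdc6 and Cdt1 were at 1.03-fold and 1.05-fold, and Gmnn, which encodes the Cdt1 inhibitor geminin, was at 1.03-fold (0.936 to 1.14). Control and knockout libraries overlapped for all 5 of these genes. Mcm3 lies on chromosome 1 (20802968 to 20820312, mm10), Mcm2 on chromosome 6 (88883474 to 88898780) and Mcm7 on chromosome 5 (138164583 to 138172422), where 13% of its exon bases are shared with exons of Ap4m1 and Cops6 on the opposite strand.

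None of the 7 genes of helicase activation passed (0 at an unadjusted p of 0.05 by edgeR, and 0 by DESeq2). Cdc45, which joins the loaded ring to form the active helicase, was at 21.0 and 21.6 CPM in control and at 20.7 and 21.4 CPM in those labelled knockout. The GINS subunits are part of the same active helicase. Gins2 was at 22 and 24.9 against 25.3 and 25.8 CPM (edgeR adjusted p = 0.159), Gins1 at 13.5 and 13.4 against 12.3 and 12.8 CPM (0.389), and Gins3 at 8.63 and 7.91 against 9.02 and 8.58 CPM (0.555). Gins2 and Gins1 did not overlap between groups but lay on opposite sides. Of the exon bases of Gins2, 70.7% are shared with Gse1 on the opposite strand, so its level is uncertain. Mcm8, which forms a helicase with Mcm9 in recombination rather than in the replication ring, was at 14.6 and 15.1 against 16.3 and 16.2 CPM (edgeR adjusted p = 0.241). Mcm10 and Gins4 were at 1.02-fold and 1.03-fold.

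Among the 6 genes of primase and the polymerases, 1 rose and 1 fell (33.3% called, against 33.1% of all genes). Pold1, the catalytic subunit of polymerase delta, which copies the lagging strand, was at 85.5 and 86.0 CPM in control and at 91.0 and 94.3 CPM in the libraries labelled knockout, 1.08-fold (1.02 to 1.14, edgeR adjusted p = 0.0197). Pola1, the catalytic subunit of polymerase alpha, which extends RNA primers, was at 34.8 and 30.6 against 28.6 and 29.5 CPM, 0.890-fold (0.816 to 0.971, edgeR adjusted p = 0.0322). The control replicates of Pola1 were farther apart than the nearest libraries of the 2 groups. Its call was lost without control replicate 1, without knockout replicate 1, with upper quartile scaling, with no low-count filter, with DESeq2 and at a threshold of 0.01, with adjusted p from 0.00179 to 0.494 over 14 alternatives. That of Pold1 was lost without either control library, without knockout replicate 2, with DESeq2 and at 0.01 (0.00345 to 0.183). Pola1 lies on chromosome X (93304767 to 93632155, mm10), where the sex difference between the groups cannot be told apart from genotype, and Pold1 on chromosome 7 (44532746 to 44548849). None of the other subunits of primase and polymerase alpha passed, and whether their folds differ from that of Pola1 was not tested. Prim1, the catalytic primase subunit, was at 27.0 and 26.5 against 29.0 and 29.1 CPM (edgeR adjusted p = 0.129), Prim2 at 1.00-fold and Pola2 at 0.993-fold (0.919 to 1.07). Pole, the catalytic subunit of the leading-strand polymerase epsilon, was at 47.9 and 47.1 against 48.8 and 48.8 CPM (edgeR adjusted p = 0.561).

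The 9 genes of the clamp, its loader and the single-strand binding protein gave no call (0 by DESeq2 also, and 1 at an unadjusted p of 0.05 by edgeR). Pcna, the sliding clamp and the most abundant member per transcript length, was at 206 and 198 CPM in control and at 207 and 200 CPM in the libraries labelled knockout. Its fold of 1.01 had an interval of 0.967 to 1.05, and its groups overlapped. Pcna has 2 annotated pseudogenes, among which reads could be shared. Rpa3, the smallest subunit of replication protein A, which coats single-stranded DNA, came nearest to passing, at 21.0 and 22.3 against 23.7 and 25.0 CPM, 1.12-fold (edgeR adjusted p = 0.0516). It passed with upper quartile scaling, total count scaling and the replicate number as a block, and without control replicate 2. The other RPA subunits were at 0.991-fold (Rpa1) and 1.03-fold (Rpa2). The 5 loader subunits ran from 1.01-fold (Rfc3) to 1.06-fold (Rfc4). Rfc1, the large subunit, was at 115 and 110 against 116 and 118 CPM (edgeR adjusted p = 0.224), Rfc2 at 51.3 and 52.5 against 54.2 and 53.5 CPM (0.394), and Rfc4 at 18.5 and 18.8 against 18.5 and 21.0 CPM (0.447).

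Genes that join Okazaki fragments and remove uracil gave no call either (0 of 3 by edgeR or DESeq2, and 0 at an unadjusted p of 0.05), and for all 3 the libraries of the groups overlapped. Fen1, the nuclease that trims the flaps between fragments, was at 41.1 and 37.8 CPM in control and at 40.9 and 43.3 CPM in the libraries labelled knockout. Its exon bases are shared for 84.1% with genes on the opposite strand, so its level is uncertain. Lig1, the ligase that seals the fragments, was at 101 and 101 against 103 and 98.3 CPM, 0.994-fold (0.945 to 1.05). Ung, which removes uracil from DNA, was at 23.7 and 25.3 against 26.9 and 23.2 CPM (edgeR adjusted p = 0.746).

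Nucleotide synthesis held the clearest differences, with 2 of 4 genes lower and none higher (50.0% called, against 33.1% of all genes). Tyms, thymidylate synthase, which makes dTMP from dUMP, was at 22.7 and 21.0 CPM in control and at 17.8 and 17.3 CPM in the libraries labelled knockout, 0.805-fold (0.727 to 0.891, edgeR adjusted p = 0.000721). Rrm2, the small subunit of ribonucleotide reductase whose level limits the enzyme in S phase, was at 227 and 223 against 205 and 206 CPM, 0.912-fold (0.877 to 0.949, edgeR adjusted p = 0.000288). For both genes the groups were apart by more than the spread within either of them. Both calls held in all 14 alternatives that tested for any difference, with adjusted p up to 0.032 for Tyms and up to 0.00585 for Rrm2. Neither passed a test against a difference of 1.2-fold, which no member passed and 6.92% of all genes did. The partner subunit Rrm1 was at 233 and 230 against 225 and 229 CPM, 0.978-fold (0.941 to 1.02, edgeR adjusted p = 0.417). Tk1, thymidine kinase, which salvages thymidine to the same product as Tyms, was at 37.8 and 37.8 against 39.4 and 36.8 CPM, 1.01-fold (0.935 to 1.09). Whether the fold of Tyms differs from that of Tk1 was not tested. Tyms lies on chromosome 5 (30058202 to 30073617, mm10) and has an annotated pseudogene, and Rrm2 lies on chromosome 12 (24708241 to 24714146).

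**Figure D3:**
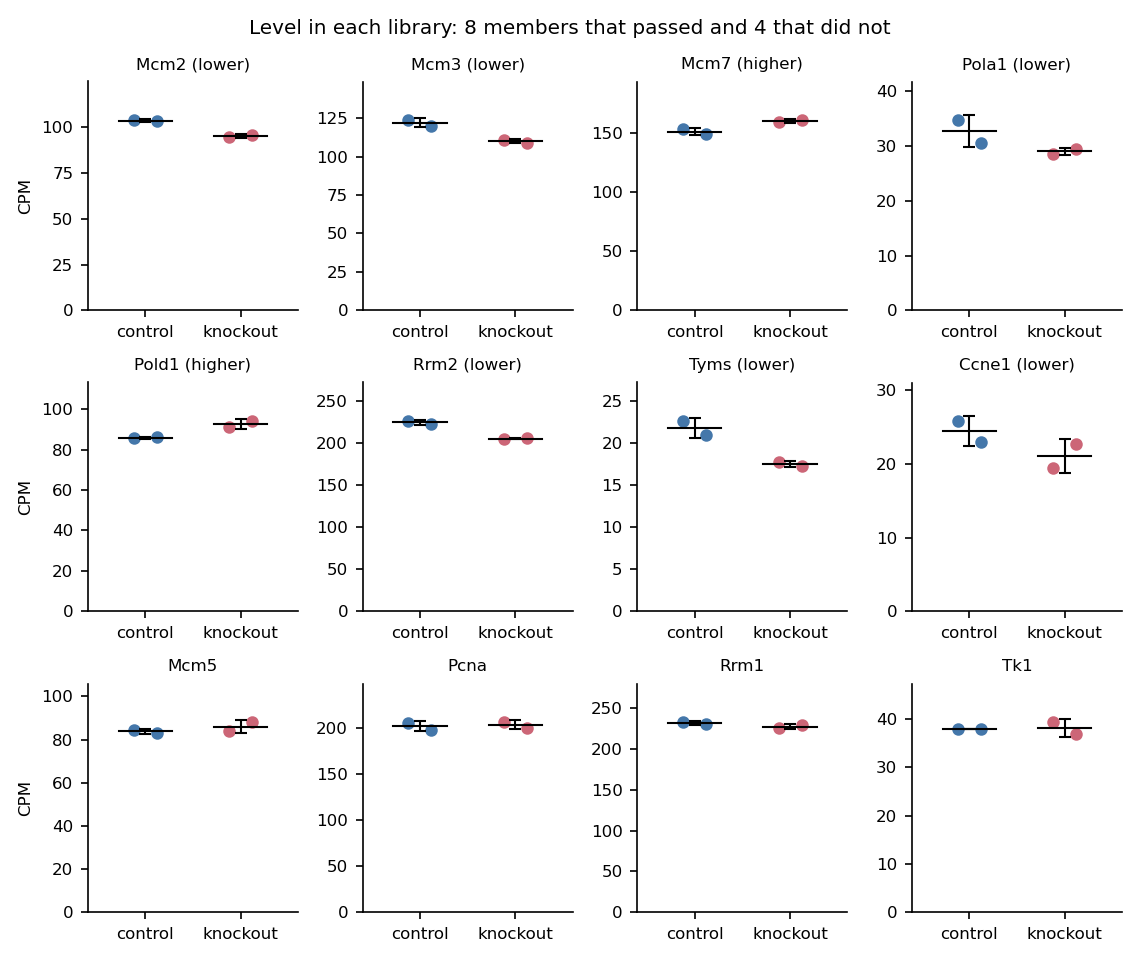
CPM of each library (points; y axes start at 0), with the group mean (line) and SD (bars, n = 2), for the 8 members that passed and 4 that did not; control is blue and libraries labelled knockout are red. The differences are small beside the levels: Tyms fell from a mean of 21.8 to 17.5 CPM, whereas Pcna stood at 202 and 204 CPM.

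None of the 4 chromatin assembly genes passed (0 by edgeR or DESeq2, and 1 at an unadjusted p of 0.05). Chaf1a, the large subunit of the assembly factor that places histones behind the fork, was at 51.8 and 53.0 CPM in control and at 54.3 and 59.7 CPM in the libraries labelled knockout, 1.09-fold (edgeR adjusted p = 0.0525). It passed in 5 of 14 alternatives, among them upper quartile and total count scaling, and 33.6% of its exon bases are shared with Ubxn6 on the opposite strand. Chaf1b, its partner, was at 25.5 and 23.2 against 26.4 and 26.1 CPM (edgeR adjusted p = 0.206). Uhrf1, which brings the maintenance methyltransferase to newly copied DNA, was at 142 and 141 against 146 and 146 CPM (edgeR adjusted p = 0.276). Slbp, the stem-loop binding protein of histone mRNA, was at 59.3 and 58.5 against 64.7 and 58.0 CPM (edgeR adjusted p = 0.346), with replicate 1 of the libraries labelled knockout above the other 3 libraries and replicate 2 below them.

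Of the 3 genes that drive the G1/S transition, Ccne1 fell (33.3% called, against 33.1% of all genes). Ccne1, cyclin E1, which activates Cdk2 at S phase entry, was at 25.9 and 23.0 CPM in control and at 19.5 and 22.7 CPM in the libraries labelled knockout, 0.861-fold (0.776 to 0.954, edgeR adjusted p = 0.0202). The groups were nearly in contact, at 23.0 and 22.7 CPM. The call was lost without control replicate 1, without knockout replicate 1, with no low-count filter, with DESeq2 and at a threshold of 0.01, with adjusted p from 0.00125 to 0.378 over 14 alternatives. Ccne2, cyclin E2, was at 11.6 and 10.4 against 11.5 and 12 CPM (edgeR adjusted p = 0.478). E2f1, the transcription factor that acts on many of the members, was at 27.7 and 26.6 against 26.5 and 25.7 CPM, 0.962-fold (0.882 to 1.05, edgeR adjusted p = 0.534). Ccne1 lies on chromosome 7 (38097984 to 38107534, mm10).

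Per kb of merged exons, the members' levels covered a wide range. Pcna was highest at 133 CPM per kb in control and 134 CPM per kb in the libraries labelled knockout, followed by Rrm2 at 103 and 93.7 CPM per kb and Rrm1 at 58.0 and 56.7 CPM per kb. Orc1 was lowest, at 2.54 and 2.37 CPM per kb. Within the MCM ring, Mcm7 was highest (51.0 and 54.0 CPM per kb) and Mcm5 lowest (24.2 and 24.9 CPM per kb), so the ratio of the highest to the lowest subunit was 2.11 in control and 2.17 in the libraries labelled knockout. The RFC subunits spanned 2.81-fold and 2.71-fold, and the GINS subunits 6.13-fold and 5.94-fold, from Gins3 to Gins4. The ratio moved more for RPA (1.64 and 1.85, Rpa3 over Rpa1) and for primase with polymerase alpha (2.75 and 3.36, Prim1 over Pola1). Rpa3, Rpa1 and Prim1 did not pass. Each ratio takes the highest and lowest subunit by level, and whether any ratio differs between the groups was not tested. These ratios rest on annotated exon lengths, which count exons that these cells may not use.

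**Figure D4:**
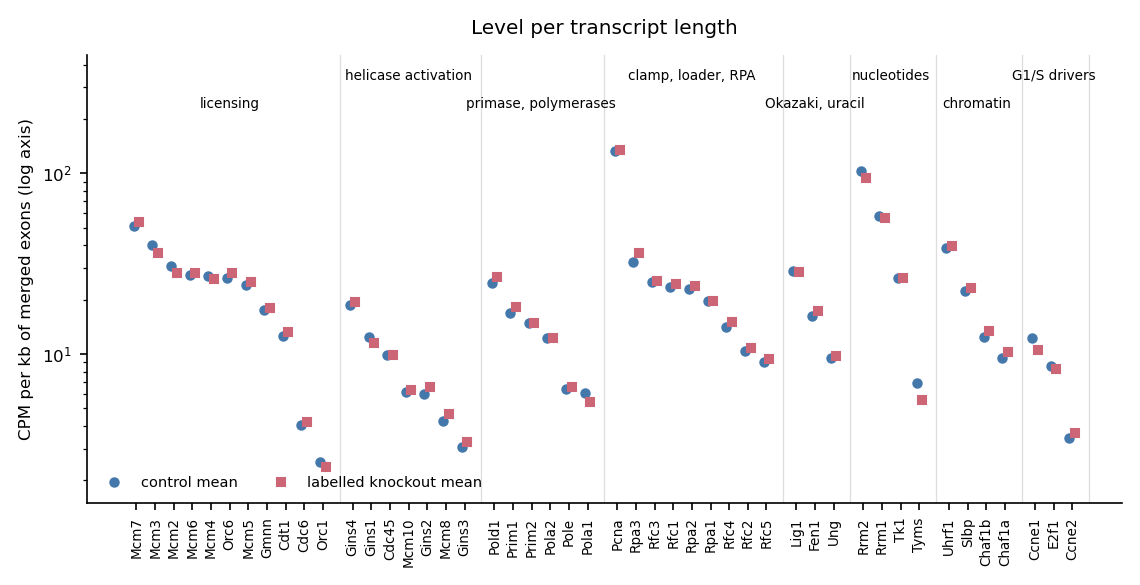
Group mean level of each member in CPM per kb of merged exons (log axis), control as circles and libraries labelled knockout as squares, ordered by control level within role groups. The 2 symbols nearly coincide for most genes, and levels run from 2.54 (Orc1) to 133 CPM per kb (Pcna) in control.

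A list of 46 further replication genes held more rises. Of these, 10 rose (21.7%, against 15.1% of all genes), 2 fell and 34 did not pass. The share called was 26.1% and so also below the 33.1% of all genes. DESeq2 called 3 higher and 0 lower. The median log2 fold change was 0.06. Dctpp1, which clears abnormal dCTP derivatives, rose from 36.4 and 36.6 CPM to 49.8 and 46.4 CPM, 1.32-fold (edgeR adjusted p = 5.4e-08), and was the 1 gene of this list to pass the test against 1.2-fold. Ticrr, which brings Cdc45 to the loaded helicase, rose from 23.7 and 23.8 CPM to 28.6 and 29.2 CPM, 1.21-fold (edgeR adjusted p = 0.00042). Subunits of ribonuclease H2, which removes ribonucleotides from DNA, were higher as well, with Rnaseh2a at 1.21-fold (edgeR adjusted p = 0.000756) and Rnaseh2b at 1.18-fold (0.00208). Pold4, the smallest polymerase delta subunit, rose from 1.63 and 2.16 CPM to 3.18 and 3.04 CPM, 1.63-fold (edgeR adjusted p = 0.00571), and Dtymk, which phosphorylates dTMP, rose 1.11-fold (edgeR adjusted p = 0.00369). The Pold4 call was lost without control replicate 1, that of Rnaseh2b without control replicate 2 and that of Dtymk without knockout replicate 2, and all 3 were lost with DESeq2. The genes that fell were Topbp1 (0.938-fold), which helps to activate origins and the replication checkpoint, and the methyltransferase gene Dnmt1 (0.944-fold). With upper quartile scaling neither of these passed. The rises numbered 10 in the main analysis, 6 without control replicate 1 and 6 without knockout replicate 2, and neither fall passed without those libraries.

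Regulators of the same program moved in both directions. Of 12 genes of the E2F, DP and pocket protein families, 3 rose, 2 fell and 7 did not pass. That is 41.7% called, against 33.1% of all genes, and a difference between these shares was not tested. E2f7 and E2f8, which repress E2F targets late in S phase, rose 1.2-fold (edgeR adjusted p = 0.002) and 1.17-fold (0.00303), and the dimerization partner gene Tfdp2 1.13-fold (0.00143). The pocket protein gene Rbl2, whose product restrains E2F targets in resting cells, fell to 0.893-fold (edgeR adjusted p = 0.0046), and Rb1 fell to 0.926-fold (0.0272). The E2f7 call was lost without control replicate 2 (adjusted p up to 0.13 over 14 alternatives), that of E2f8 without knockout replicate 1 (up to 0.077) and that of Rbl2 without control replicate 1 (up to 0.0871). All 3 were also lost with DESeq2. Among 22 genes of G2 and M phase 7 rose, 1 fell and 14 did not pass (36.4% called, near the share of all genes). For 21 of them the 95% interval lay within 1.2-fold, as it did for 50.4% of all genes, a share not matched for abundance. Top2a, which untangles DNA before mitosis, was at 455 and 447 CPM in control and at 479 and 481 CPM in the libraries labelled knockout, 1.06-fold (edgeR adjusted p = 0.00314), and Cenpf was at 1.10-fold (0.000478). Mki67, the usual marker of cycling cells, was at 454 and 457 against 479 and 469 CPM, 1.04-fold (1.01 to 1.08, edgeR adjusted p = 0.06), which passed in 4 of 14 alternatives.

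Markers of cell types differed far more than the replication genes in the same libraries. The defining markers of neural stem cells were present, with Nes at 632 and 628 CPM in control, Sox2 at 432 and 458 CPM and Fabp7 at 1380 and 1340 CPM, and none of the 11 genes of that list was at 0. Their summed level was 86.5% and 86.8% of the control mean in the libraries labelled knockout, with 5 of 11 lower and 3 higher. That of 6 astrocyte genes was 65.5% in both libraries (4 lower, 1 higher). That of 7 intermediate progenitor genes was 145% and 149% (5 of 6 tested genes higher). Btg2, Dll1 and Dll3 were the most abundant genes of this list, and they rose. Eomes, a defining marker in it, did not pass, at 2.38 and 1.63 CPM in control against 1.7 and 1.81 CPM (edgeR adjusted p = 0.58). Neurog1 had at most 1 count in a library. Neuronal genes stood at 115% and 114% (5 of 8 higher), oligodendrocyte lineage genes at 108% and 111% (4 of 8 higher, 1 lower) and choroid plexus genes at 686% and 694% (7 of 7 higher). Mural cell and fibroblast genes stood at 36.2% and 37.9% (7 of 9 lower, 2 higher), endothelial genes at 65.6% and 70.5% (2 of 6 tested genes lower, 1 higher), and microglial genes, scarce at 6.51 to 8.05 CPM in control, at 48.6% and 36.4% (5 of 6 tested genes lower). Of 6 erythroid genes 4 had 0 counts in every library. The 47 members stood at 101% and 99.1% in control and at 100% in both libraries labelled knockout. In bulk RNA, fewer cells of a type and less RNA per cell cannot be told apart, and the part of these markers in the values of the replication genes was not tested.

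**Figure D5:**
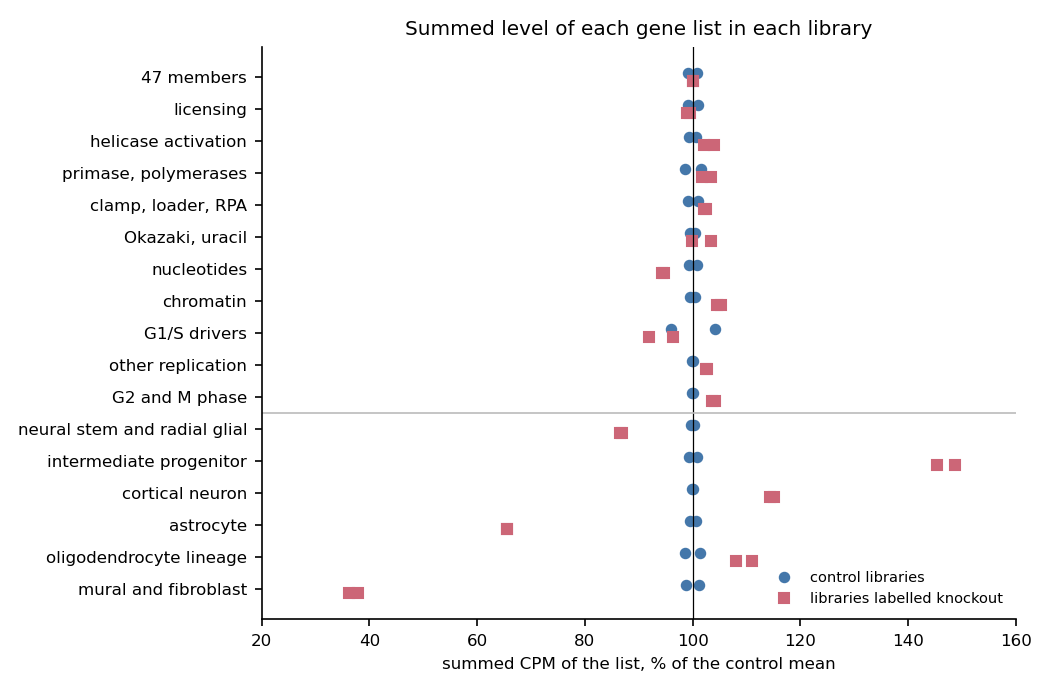
Summed CPM of each gene list in each library as a percentage of the control mean (x axis from 20 to 160), control as circles and libraries labelled knockout as squares; cell type lists are under the grey line, and the choroid plexus list (686% and 694%, off the axis) and the scarce endothelial, microglial and erythroid lists are left out. The 47 members stay at 99.1% to 101%, and nucleotide synthesis genes are at 94.2% and 94.6%, while astrocyte genes are at 65.5%.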

How the data were processed

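The authors deposited whole-number counts by gene symbol, 1 table per library and not normalized. The mm10 build is named in the submitters' processing notes beside DESeq2 1.26.0, HTSeq 0.12.4 and HISAT2 2.2.1. Neither an annotation nor a strand setting is given in the sources used here. The 5 summary lines of reads assigned to no gene (25.2% to 26.1% of a library) were left out. Groups and replicate numbers came from the sample titles.

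Groups were tested in R 4.3.3 with edgeR 4.0.16 (filterByExpr, TMM scaling, quasi-likelihood F test with the legacy fit turned off, Benjamini-Hochberg adjustment over 15012 genes, threshold 0.05). Intervals of 95% used the standard error of that fit. With 2 against 2 libraries no exact permutation p can go under 0.333, so none was used. The steps were tested on simulated counts, in which 20 of 14680 unchanged genes were called. Alternatives covered scaling, filters, DESeq2 1.42.0, limma 3.58.1 voom, the legacy fit, thresholds, a replicate block and each library left out. Exon lengths, overlaps and positions came from GENCODE M21 (GRCm38, the assembly of mm10), and promoters from RefSeq.

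The members, role groups, lists and the rule for named genes were chosen with earlier results of these data known. The rule gives library values for up to 4 members of each role group with the smallest p. It adds the genes with the smallest p in the other lists (6 of further replication genes, 4 of E2F families, 2 of G2 and M phase beside Mki67 and Top2a). Topbp1, Dnmt1 and Rb1 were named after their values were seen.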

Additional observations from a re-analysis of the deposited data

How the results depend on the processing

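Of the 8 members that passed, Mcm3, Rrm2 and Tyms did so in all 14 alternatives that tested for any difference. Members that rose numbered 2 in the main analysis, 4 with upper quartile scaling, total count scaling or the replicate block, 1 with no low-count filter, and 0 with DESeq2, at an adjusted p of 0.01 or against 1.2-fold. Members that fell numbered 6 in the main analysis, 3 with DESeq2, 0 against 1.2-fold and 3 to 6 when a library was left out (3 without knockout replicate 1). Leaving out a library kept 4 to 6 of the 8 calls, and 2 members rose each time, though not always the same ones. Over all genes 1055 rose and 1642 fell with DESeq2, 279 and 760 against 1.2-fold, and 1490 rose at 0.01, against 2263 and 2711 in the main analysis. Rises made up 45.5% of the calls, and 56.2% with upper quartile scaling. That scaling moved the median of all genes by 0.027. Of the other replication genes 6 rose with no low-count filter or at 0.01, 3 with DESeq2, 1 against 1.2-fold and 6 to 9 when a library was left out. Falls numbered 1 with no filter, 0 with upper quartile scaling, with DESeq2, at 0.01 and against 1.2-fold, and 0 to 2 when a library was left out. DESeq2 called 18.0% of all genes and 6.38% of the members. Of the 39 members that did not pass, 15 changed sign under at least 1 alternative, none of them with a log2 fold change past 0.1 in size in the main analysis, and 0 of the 8 that passed did. They were Orc1, Cdc6, Mcm6, Cdc45, Mcm10, Prim2, Pola2, Pcna, Rfc3 and Rpa1 (from -0.21 to 0.13 together), and Lig1 (0.02 with upper quartile scaling and 0.02 without knockout replicate 2), Rfc4 (-0.01 without knockout replicate 2), Ung (-0.01 without control replicate 1, -0.08 without knockout replicate 1), Tk1 (-0.04) and Slbp (-0.02), both without knockout replicate 1. Over the libraries left out, the log2 fold change ran from -0.01 to 0.17 for Rfc4, from -0.08 to 0.13 for Ung, from -0.04 to 0.06 for Tk1 and from -0.02 to 0.14 for Slbp. Deviations of same-numbered libraries from their group means correlated at -0.0165 over genes. With 2 libraries per group this does not settle whether the replicate numbers pair the libraries, and the labels do not say. With the number as a replicate block 2442 genes rose and 2881 fell, among them 4 and 6 members and, of the other replication genes, 11 and 2. Where a group is left with 1 library, that library is assumed to vary like the other group.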
